A study of Mus musculus with 4 samples.

Results

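Nxt2 and 9 other genes of the nuclear mRNA export machinery were followed by PRO-seq in mouse embryonic stem (mES) cells depleted of the zinc-finger protein Zfp574. The 10 genes were taken by name, and all 10 were present among the 12486 genes of the count table. They are Nxt2, Nxt1, Nxf1, Alyref, Ddx39b, Chtop, Thoc1, Thoc2, Thoc5 and Thoc6. Nxt2 was chosen by its higher signal after depletion in these same libraries, so its change, and that of the 9 genes listed with it, is given as a description.

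PRO-seq labels the 3′ end of RNA while polymerase extends it in isolated nuclei, so a count reports engaged polymerase on a gene. All cells were AID-Zfp574 mES cells, diploid and of originally haploid descent, made in a clonal parental line in which an EF1a cassette expresses ARF16, the plant ubiquitin ligase adaptor OsTir1 and mCherry. Tagged clones were genotyped one by one, and whether a single clone was used is not given in the sources used here. The degron (AID) at the N terminus of Zfp574 sends the protein to the proteasome when the auxin IAA is added. Control cells (0 h, 2 libraries) received no IAA, and depletion cells (2 libraries) received 500 µM IAA for 6 h. Both groups carried the tag and OsTir1, so an effect of IAA itself and an effect of losing Zfp574 cannot be told apart here.

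Messenger RNA leaves the nucleus bound to a receptor made of Nxf1 and a small partner, either Nxt1 or its paralog Nxt2. The receptor is loaded by the TREX complex, in which the THO subunits (Thoc1, Thoc2, Thoc5 and Thoc6 among them) hold the RNA helicase Ddx39b, and Ddx39b in turn brings in adaptors such as Alyref and Chtop. TREX joins the RNA during transcription, splicing and capping, and the receptor then carries the particle through the nuclear pore.

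The control libraries summed to 3298864 and 3616429 counts and the depletion libraries to 6045216 and 5670904 counts. Levels are given as CPM, a gene's counts relative to the total of its library, scaled by TMM, which sets the bulk of genes near no change. Of 10 embryonic stem cell markers, 9 were in the table, each above 10 CPM, and their summed signal was 4149 to 4204 CPM in the controls and 4197 to 4274 CPM after depletion. Of 10 markers of other cell types, 4 were in the table, with a summed signal of 38.8 to 44.4 CPM in the controls and 46.3 to 49.8 CPM after depletion. Of these 4, 2 were also above 10 CPM. The highest, Sox1 (mean 25.3 CPM), lay above the lowest stem cell marker, Dppa5a (10.2 CPM). Zfp574 itself, whose degron acts on the protein, had 24 and 35.5 CPM in control libraries against 32.7 and 38.9 CPM after depletion, which overlapped.

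Nxt2 lies on chromosome X (142226770 to 142239692, plus strand, mm10), with 5 annotated transcripts that start at different positions. Nxt1 lies on chromosome 2 (148672601 to 148676027, plus strand). A stretch upstream of an annotated start of each gene is shown, as the paralogs differ in level. Any link of these sequences to level or to depletion was not tested. The sequence before the start of the longest Nxt2 transcript is not shown. The Nxt2 stretch (chrX:142227687-142227936, plus strand) ends at the start of its second transcript and lies in an intron of the longest one. The Nxt1 stretch (chr2:148672365-148672600, plus strand) ends before the first annotated start. Both are written 5′ to 3′ from RefSeq, build GRCm38.p6, and capitals mark the letters CCAAT or GGGCGG on either strand:
Nxt2: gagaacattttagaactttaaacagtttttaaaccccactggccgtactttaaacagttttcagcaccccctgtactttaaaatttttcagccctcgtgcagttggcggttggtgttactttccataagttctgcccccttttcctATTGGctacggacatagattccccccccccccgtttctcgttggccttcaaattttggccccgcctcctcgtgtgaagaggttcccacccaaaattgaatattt
Nxt1: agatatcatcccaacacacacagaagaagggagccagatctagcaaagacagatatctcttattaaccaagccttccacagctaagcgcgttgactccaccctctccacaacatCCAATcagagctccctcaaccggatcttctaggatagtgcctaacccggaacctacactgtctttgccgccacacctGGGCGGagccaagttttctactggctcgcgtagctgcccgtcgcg

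The Nxt2 stretch held a single CCAAT, on the minus strand, and no GGGCGG. The Nxt1 stretch held 1 CCAAT and 1 GGGCGG, both on the plus strand. CCAAT is the letter sequence of the CCAAT box and was found on either strand of 34.5% of 27025 promoters, and GGGCGG, that of the GC box, of 32.9%. Neither stretch held CACGTG (6.05% of promoters), CCGGAAG (7.05%) or TATAAA (13.0%) on either strand. The GC content was 46% in the Nxt2 stretch and 53% in the Nxt1 stretch, around the median of 52% over all promoters.

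Nxt2 had the least nascent signal per length among the 10 genes in the controls, which are part of the comparison it was picked on. After depletion its values of 0.533 and 0.606 CPM per kb overlapped those of Thoc1, 0.585 and 0.667. On the CPM per kb scale, over the annotated span of the gene, Nxt2 had a level of 0.276 ± 0.0281 (SD, n = 2) in the controls, above 7.28% of 12474 genes. Nxt1 was at 4.48 ± 1.60, although its control libraries lay apart, at 5.61 and 3.34 CPM per kb. Nxf1, the receptor subunit that both partners bind, was at 1.48 ± 0.233, near the median of 1.42 over all genes.

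The helicase and the adaptors had the highest levels per length. Ddx39b, the ATPase that recruits adaptors to TREX, was at 21.4 ± 0.393 CPM per kb in the controls, above 97.1% of genes. Chtop, which binds RNA and Nxf1, followed at 13.4 ± 1.74, and Alyref, the best known adaptor, at 9.88 ± 0.295. The THO subunits lay lower. Thoc2, the large scaffold subunit, was at 2.31 ± 0.108, Thoc6 at 2.17 ± 0.00496, Thoc5 at 1.62 ± 0.00867 and Thoc1 at 0.696 ± 0.000782 CPM per kb. In this order, from Ddx39b through Chtop, Alyref, Nxt1, Thoc2, Thoc6, Thoc5, Nxf1 and Thoc1 to Nxt2, the control values of neighbors overlapped for 1 pair, Thoc5 and Nxf1. An SD of 2 libraries can fall below counting error, as for Thoc6, which rests on 38 and 42 control counts. The order of close neighbors, such as Thoc2 and Thoc6, was not tested. Counts over a whole gene include polymerase paused near its start, which weighs more in a short gene.

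**Figure D1:**
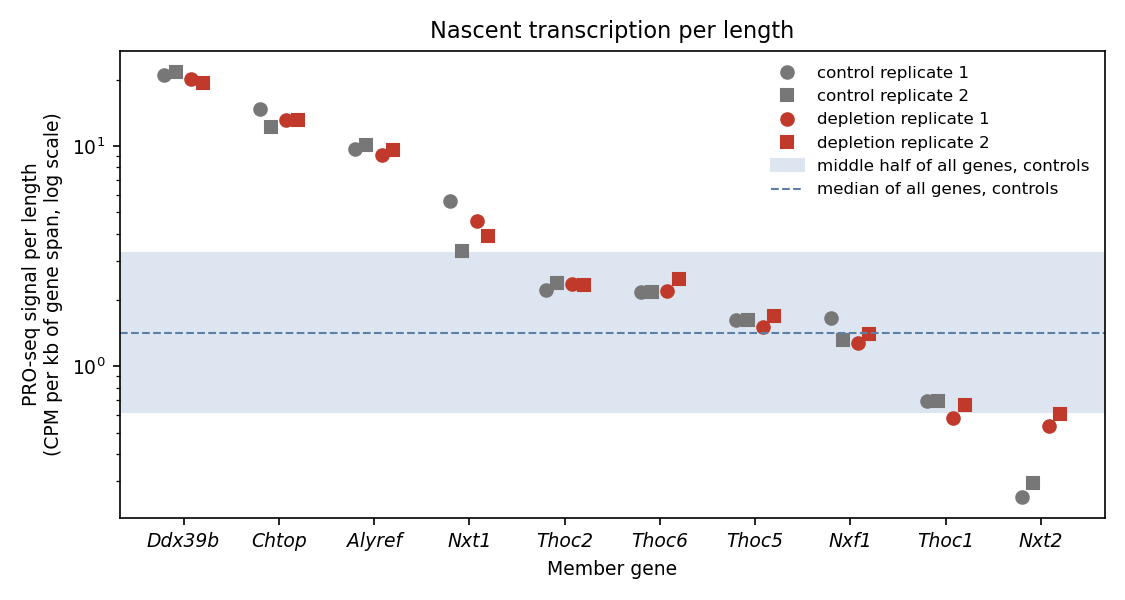
Level of each member in each library, as CPM per kb of annotated gene span on a log axis, ordered by control mean, with gray points for controls and red points for depletion. Nxt2 lies lowest, with control points at 0.256 and 0.295 and depletion points at 0.533 and 0.606, and the band marks the quartiles of all genes in the controls, 0.618 and 3.26.

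Nxt2 was covered by 11 and 14 counts in control libraries against 41 and 44 in depletion libraries, or 3.3 and 3.82 CPM against 6.88 and 7.83 CPM. Both depletion libraries lay above both controls. The mean control level was 3.56 ± 0.363 CPM (SD, n = 2) and the mean depletion level 7.35 ± 0.667 CPM, which is 2.05-fold, or 1.03 ± 0.30 (SE) as a log2 fold change. This was the 7th highest log2 fold change among 11853 genes tested. As these are counts from bulk nuclei, more cells transcribing Nxt2 and more polymerase per cell cannot be told apart.

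The 2.05-fold value of Nxt2 rested on 25 control counts in all. With 1 library left out, its log2 fold change was lowest when control replicate 1 was omitted (0.94) and highest when control replicate 2 was (1.15). With size factors worked back from the authors' table the value was 0.93, and these factors moved the median of all genes to -0.105. Under each of the alternatives that tested it, the value of Nxt2 lay above those of all other members. Reads placed at more than 1 position were not counted, and 68.4% of the 28-base windows of the Nxt2 span occur once in the genome, against 86.4% to 96.6% for the other members. The levels per kb were not corrected for these shares. No such window is shared between the spans of Nxt1 and Nxt2.

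**Figure D2:**
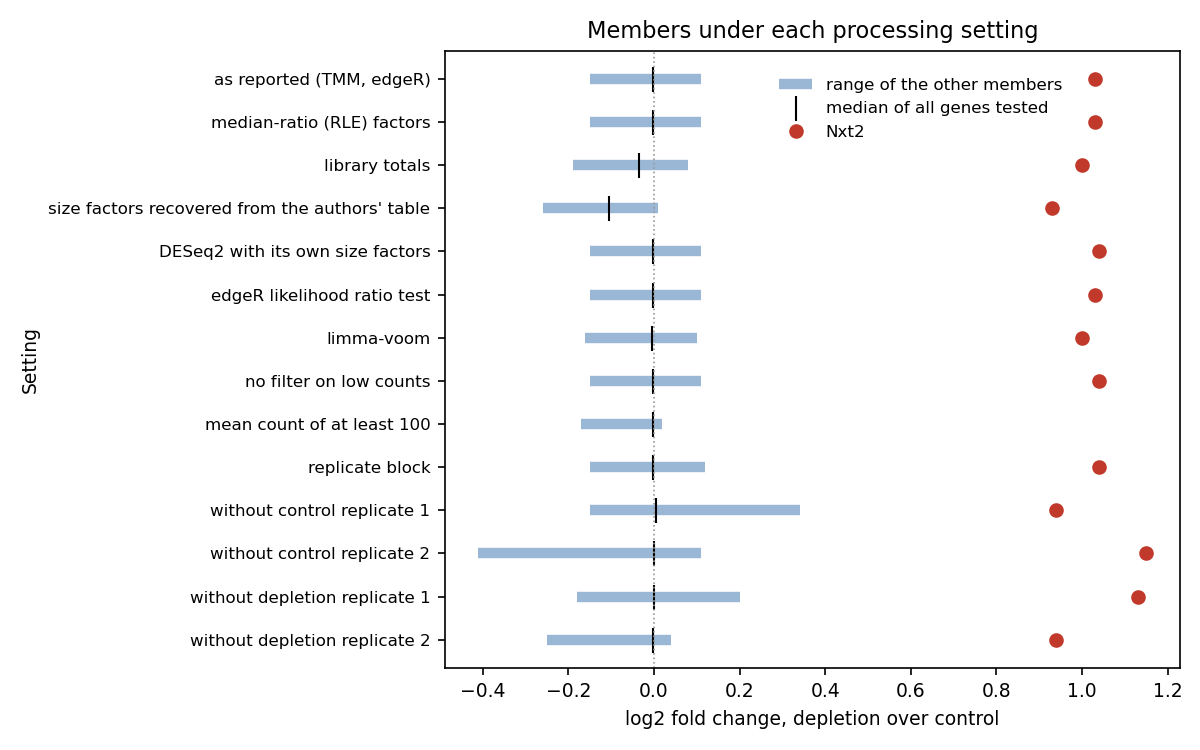
The log2 fold change of Nxt2 (red points), the range over the other members (bars) and the median of all genes tested (ticks) under each processing setting on the vertical axis. Nxt2 lies between 0.93 and 1.15 wherever it was tested, and with a mean count of at least 100 it was not tested.

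Nxt1, the other partner of Nxf1, was covered more deeply, but its control libraries differed from each other. Control libraries held 64 and 42 Nxt1 counts and depletion libraries 93 and 75, or 19.2 and 11.5 CPM against 15.6 and 13.3 CPM. The depletion values lay between the 2 controls. Its log2 fold change was -0.06 with a 95% interval of -0.48 to 0.35, and the sign turned with the library left out. It was 0.34 when control replicate 1 was omitted, -0.41 when control replicate 2 was, and 0.04 without depletion replicate 2.

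Within the pair, Nxt2 took 14.7% of 75 counts (95% exact Clopper-Pearson interval 7.56% to 24.7%) and 25% of 56 counts (14.4% to 38.4%) in the control libraries. After depletion it took 30.6% of 134 counts (22.9% to 39.1%) and 37% of 119 counts (28.3% to 46.3%). The shares after depletion were the higher ones, but the interval of control replicate 2 overlapped both. The interval of control replicate 1 overlapped that of depletion replicate 1. The intervals cover counting error only. As Nxt2 was picked on its rise in these libraries, the direction of its share is no separate result. The summed signal of the pair was 22.5 and 15.3 CPM in the controls and 22.5 and 21.2 CPM after depletion.

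**Figure D3:**
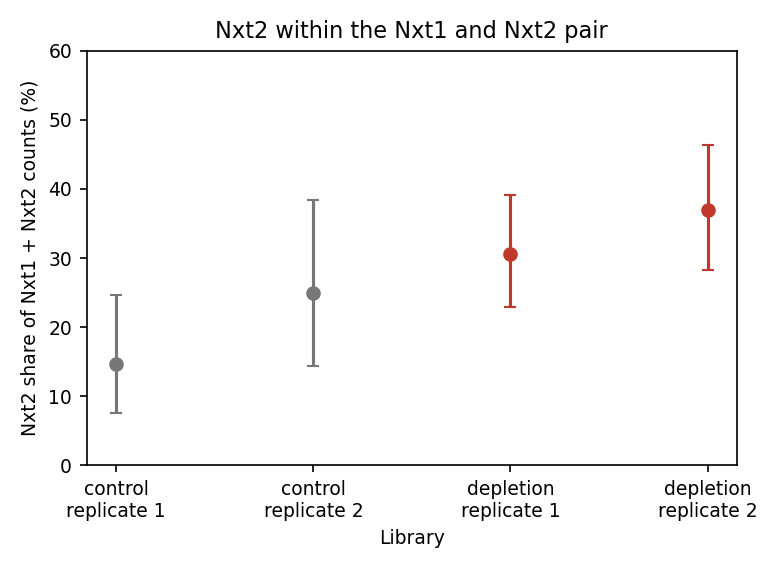
Share of Nxt2 in the summed counts of Nxt1 and Nxt2 in each library, in percent, with 95% exact intervals as bars. The controls sit at 14.7% and 25% and the depletion libraries at 30.6% and 37%.

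Nxf1 (chromosome 19, 8757073 to 8770922) had 22.8 and 18.3 CPM in control libraries against 17.6 and 19.4 CPM in depletion libraries. The groups overlapped, and the log2 fold change was -0.15 with an interval of -0.48 to 0.19. Nxf1 was not called at 67 to 109 counts per library, and without control replicate 1 the value was 0.02.

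Among the TREX helicase and adaptors, Ddx39b (chromosome 17, 35241746 to 35253707) had 253 and 260 CPM before depletion against 242 and 231 CPM. Both depletion libraries were below both controls, at -0.12 ± 0.06 (SE) on the log2 scale. Alyref (chromosome 11, 120592121 to 120598365) had 60.4 and 63 CPM against 56.7 and 59.9 CPM, which also did not overlap, at -0.08 ± 0.10 (SE). Chtop (chromosome 3, 90498956 to 90509498) had 155 and 129 CPM against 139 and 138 CPM. Its depletion values lay between the controls, and its log2 fold change of -0.03 became 0.10 without control replicate 1.

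The THO genes had log2 fold changes between -0.15 and 0.11. Thoc1 (chromosome 18, 9957906 to 9995489) had 26.1 and 26.2 CPM in control libraries against 22 and 25.1 CPM, a log2 fold change of -0.15 with an interval of -0.44 to 0.13. Without depletion replicate 1 it was -0.06. Thoc2 (chromosome X, 41794991 to 41920674) had 280 and 299 CPM against 298 and 295 CPM, and its interval of -0.09 to 0.15 was the narrowest among the THO members. Its log2 fold change of 0.03 turned to -0.07 with the recovered size factors, and to -0.01 without control replicate 1. Thoc5 (chromosome 11, 4895320 to 4928867) had 54.7 and 54.3 CPM against 50.7 and 56.9 CPM, with a log2 fold change of -0.02 that turned to 0.07 without depletion replicate 1. Thoc6 (chromosome 17, 23668614 to 23673882) had 11.4 and 11.5 CPM against 11.6 and 13.2 CPM, both depletion values being higher, with a log2 fold change of 0.11 and an interval of -0.29 to 0.52. Thoc1 is overlapped on the other strand by Usp14 and Thoc6 by Hcfc1r1, which are also in the table. Annotated genes that are not in the table overlap some members too. On the same strand these are Gm22589, Gm25128, Mir6975 and Mir8094 in Ddx39b and AA413626 in Thoc5. On the other strand they are Gm7657 in Thoc2 and Bicdl2 in Thoc6. Their part in the counts was not examined. Per the methods, the strand of each read was turned to match transcription before counting, while the strand setting of the count itself is not spelled out.

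**Figure D4:**
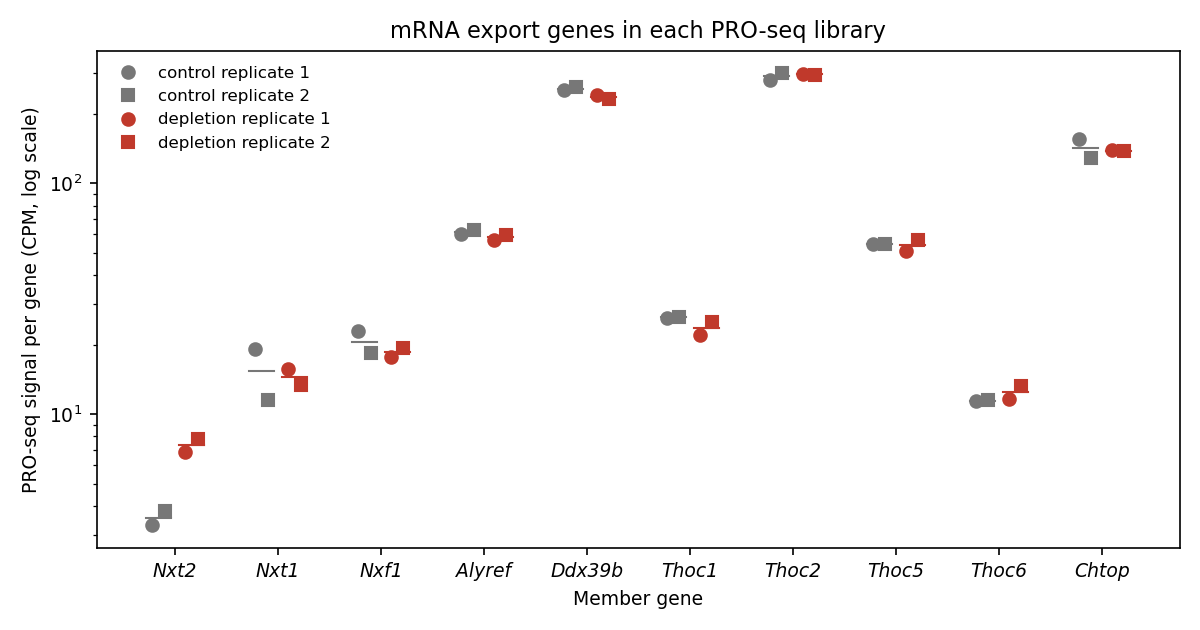
CPM of the 10 members in each library on a log axis, with gray points for controls, red points for depletion, circles for replicate 1, squares for replicate 2 and lines for group means. In Nxt2, 3.3 and 3.82 CPM in the controls stand below 6.88 and 7.83 CPM after depletion, while for Nxt1 the depletion points lie between the controls.

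Across the members other than Nxt2, the log2 fold change ran from -0.15 to 0.11 with a median of -0.06, beside -0.002 over all genes tested. Values varied with gene length. The median over the length decile of each of these members ran from -0.08 (Alyref and Thoc6) to 0.10 (Thoc2). The part of length was not tested. Of the 10 members, 2 had both depletion libraries above both controls (Nxt2 and Thoc6), and 3 had both below (Alyref, Ddx39b and Thoc1). The same separation was seen upward in 23.3% and downward in 22.9% of all genes tested, so these shares are near the background. At a Benjamini-Hochberg adjusted p under 0.05 in the edgeR quasi-likelihood test, 0 of the 10 were called, whereas 1.11% of all genes were called higher and 1.4% lower. At an unadjusted p under 0.05 the count was 1 of 10, Nxt2, beside 16.2% of all genes. DESeq2 called 0 members, where it called 0.118% of all genes higher and 0.515% lower. The limma-voom fit also called 0, beside 1.27% of all genes higher and 1.43% lower. The likelihood ratio test and the fit with a replicate block each called 1 member, again Nxt2, where they called 1.32% and 3.09% of all genes higher. Nothing is read from these counts, since Nxt2 was picked on this comparison.

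The wider export pathway was described with a list of 64 genes by function, 62 of which were in the table and tested. The list was written with earlier results of these data known, so its shares are descriptions and nothing is read from them. In this list 3 genes were called lower and 0 higher, and none of the 3 was a member. They are Ncbp3, Fyttd1 and Sem1. The share called lower was 4.84%, against 1.4% of all genes. Of the 62, 2 (3.23%) were called lower with at least 2-fold, against 0.321% of all genes. No gene was called higher with at least 2-fold in the list or among all genes (0%). Nxt2, at 2.05-fold, was not called. At an unadjusted p under 0.05, 12 of the 62 were lower (19.4%, beside 7.66% of all genes), and 2 were higher, Nxt2 and Zc3h14 (3.23%, beside 8.53%). In DESeq2 and limma-voom 0 were called higher, beside 0.118% and 1.27% of all genes.

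Ncbp3, a cap-binding protein that associates with TREX, showed the largest fall in the list. The gene (chromosome 11, 73047783 to 73089317) had 108 and 109 CPM in control libraries against 47.2 and 50.5 CPM in depletion libraries. This was 2.23-fold lower, at -1.16 ± 0.09 (SE) on the log2 scale (adjusted p 6.61e-10, edgeR). The other cap-binding genes had log2 fold changes of 0.04 (Ncbp1) and -0.09 (Ncbp2), neither past the threshold.

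Fyttd1, also known as UIF, is an adaptor that binds Ddx39b and Nxf1. The gene (chromosome 16, 32877500 to 32908875) fell from 26.4 and 24.8 CPM to 12.1 and 12.4 CPM. This was 2.08-fold lower, at -1.06 ± 0.16 (SE) on the log2 scale (adjusted p 0.000126, edgeR). Alyref and Chtop, the adaptors among the members, had log2 fold changes of -0.08 and -0.03, and the difference between adaptors was not tested.

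Sem1 is a small acidic subunit of TREX-2, which ties export to the nuclear pore, and also of the proteasome lid. The gene (chromosome 6, 6557294 to 6578663) fell from 56.2 and 51.3 CPM to 32.9 and 28.5 CPM, by -0.80 ± 0.11 (SE) on the log2 scale (adjusted p 4.59e-05, edgeR). The remaining TREX-2 genes tested did not pass. Cetn2 came closest in size, at -0.85 with an interval of -1.75 to 0.04, on 13 and 9 control counts and 10 per depletion library.

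Ncbp3, Fyttd1 and Sem1 each stayed past the threshold without any 1 of the 4 libraries and in every other scaling, test and filter that tested them. With the recovered size factors, 12 genes of the list were lower, Ddx39b among them, while calls over all genes also rose in number, from 166 to 698 lower (5.89%), and their median moved down to the -0.105 given above.

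By class, the median log2 fold change was 0.00 over 4 export receptor genes, which ran from -0.15 (Nxf1) to 1.03 (Nxt2). The median was 0.03 over 7 THO genes, -0.08 over 9 TREX helicases and adaptors, and -0.20 over 6 TREX-2 genes. It was -0.05 over 9 genes of the exon junction complex and its periphery, which mark spliced RNA, and -0.12 over 9 cap, SR and tail-binding factors. The 12 genes of the pore, its basket and the release of mRNA on the cytoplasmic side had a median of -0.06, and the 6 genes of the Xpo1 route 0.00. Over the whole list it was -0.06, with 44 of 62 genes below 0 (71%), beside 50.6% of all genes tested. As the list was written with earlier results known, this share too is a description.

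**Figure D5:**
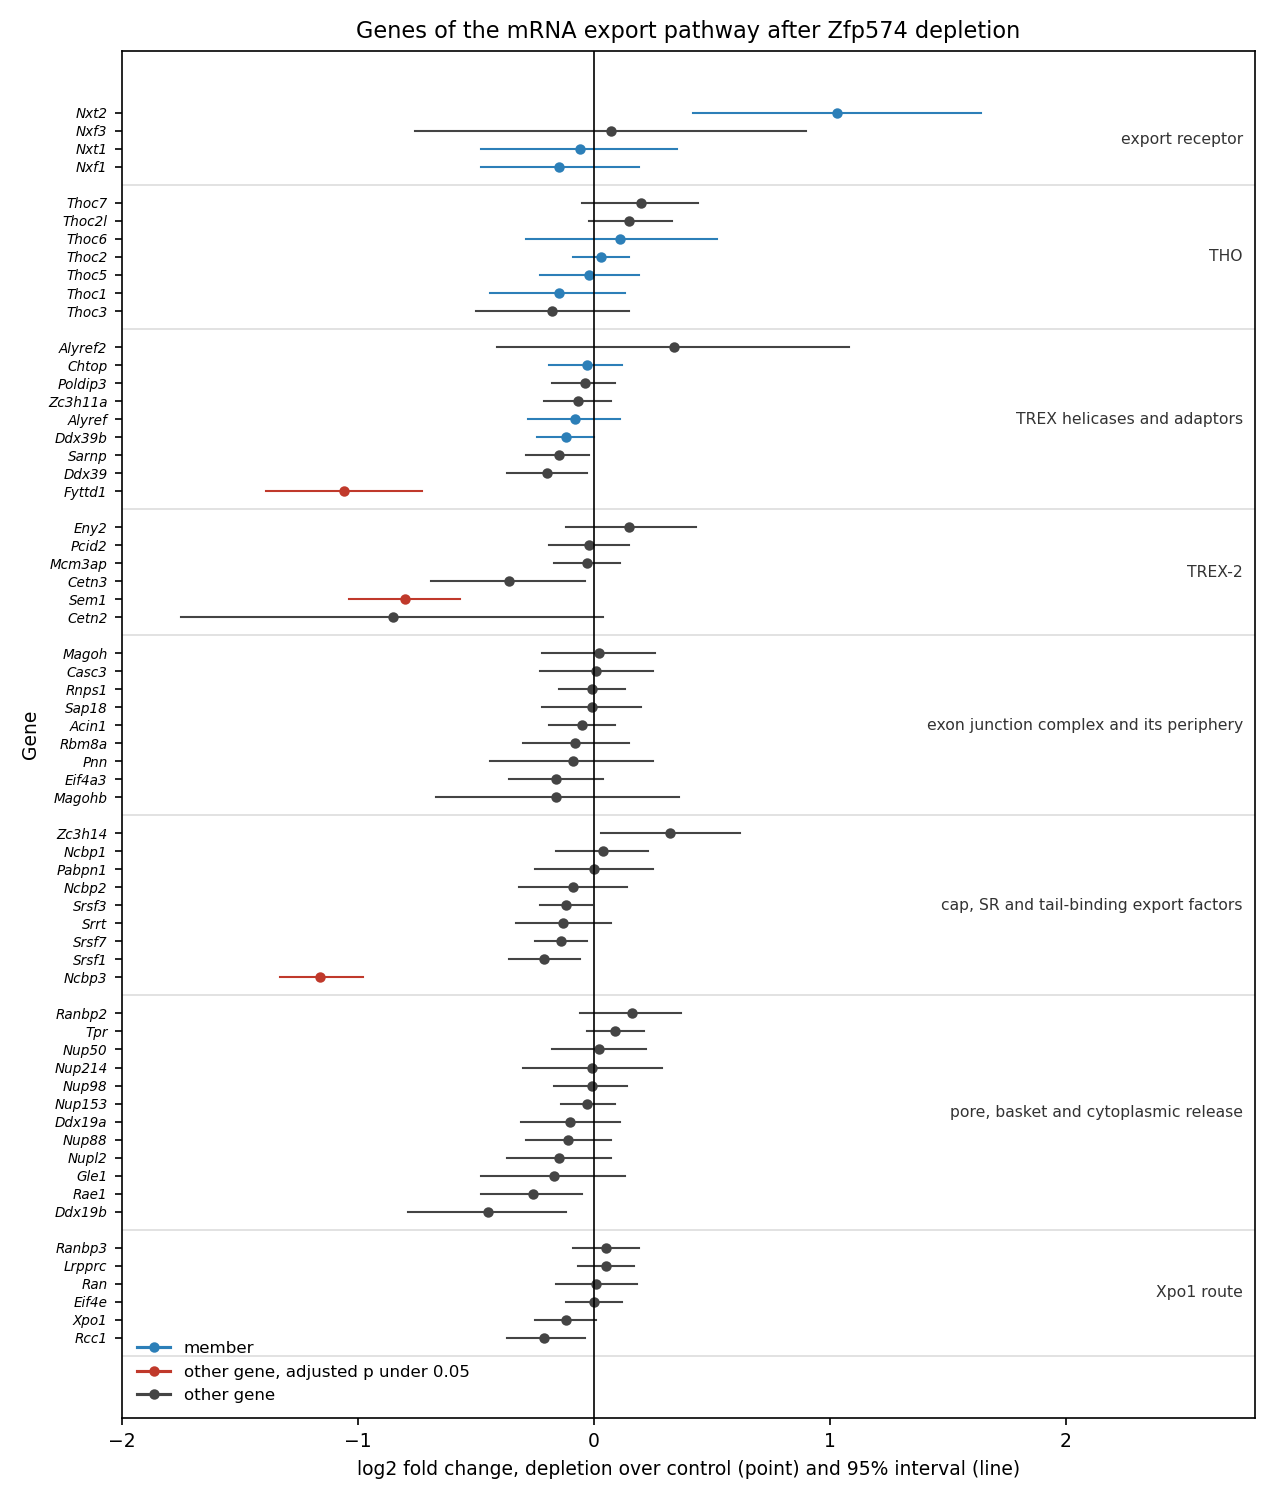
The log2 fold change, depletion over control, of the 62 export pathway genes tested (points) with 95% intervals (lines), grouped by class, with members in blue and other genes past an adjusted p of 0.05 in red. Ncbp3 (-1.16), Fyttd1 (-1.06) and Sem1 (-0.80) lie to the left, and Nxt2 (1.03) lies farthest to the right.

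The surroundings of Nxt2 were also examined. The nearest gene of the table on the side of higher coordinates is Acsl4, a long-chain acyl-CoA synthetase gene that ends 78301 bp away and is transcribed towards Nxt2. Its signal went from 52.0 and 58.9 CPM to 70.2 and 74.7 CPM, or by 0.38 ± 0.10 (SE) on the log2 scale (adjusted p 0.0274, edgeR). Tmem164, on the same side at 441714 bp, went from 215 and 224 CPM to 262 and 257 CPM, or by 0.24 ± 0.06 (SE) (adjusted p 0.0236, edgeR). Both rose in this fit.

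These calls did not hold in all settings. For Acsl4 and Tmem164 the adjusted p was 0.0905 and 0.26 with the recovered size factors, 0.0568 and 0.0647 with library totals, and 0.728 and 0.582 in DESeq2. It was also above 0.05 for both without control replicate 1, depletion replicate 1 or depletion replicate 2, at 0.208, 0.11 and 0.288 for Acsl4 and 0.0895, 0.253 and 0.2 for Tmem164. Long genes tended to have higher values in this comparison, with a median log2 fold change of 0.06 in the length decile of Acsl4 and 0.10 in that of Tmem164, against -0.05 in that of Nxt2, and the part of length in these values was not tested. On the side of lower coordinates, the nearest gene of the table, Psmd10, was 1270042 bp away. Psmd10 had a log2 fold change of 0.14 (interval -0.71 to 0.99) on 8 and 9 control counts, and Tex13b one of 0.21 (interval -0.58 to 0.99). The median over 373 genes of chromosome X was 0.02.

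The genes with the profile most like Nxt2 were taken by the smallest Euclidean distance between log2 CPM values over the 4 libraries, each gene centered on its mean. They were Msx1 (distance 0.179), Nkiras2 (0.181), Cnst (0.205), C430049B03Rik (0.235) and Zfp791 (0.256). Msx1, a homeobox transcription factor gene, had 3 and 5 control counts against 15 and 16. Cnst, the deepest of the 5, had 31.2 and 30.8 CPM against 60.1 and 59.0 CPM. Having been selected on this profile, these genes are listed without a test.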

How the data were processed

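PRO-seq counts of 4 libraries were used. Per the labels and the methods, the authors separated an 8-bp molecular identifier from 36-bp reads, trimmed adapters with cutadapt 1.18, and aligned to mm10 with Bowtie 1.2.2, keeping uniquely placed reads. The deposited counts are whole, identifier-collapsed reads per gene, unnormalized, over genes with CAGE-corrected starts, which differ from the GENCODE M21 spans used here. The authors also deposited a mean normalized signal with their DESeq2 fold changes and p-values. That signal served to recover their size factors (0.699, 0.740, 1.32 and 1.24), which differ between replicates although the methods describe a Drosophila S2 spike-in factor common to a condition. The other columns were not used.

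filterByExpr (minimum count 10, minimum total 15) left 11853 of 12486 genes. Libraries were scaled by TMM and compared with the two-sided quasi-likelihood test of edgeR 4.0.16 in R 4.3.3, with condition as the single term. Called means a Benjamini-Hochberg adjusted p under 0.05, with at least 2-fold where stated. Standard errors and 95% intervals follow from the F statistic. DESeq2 1.42.0, limma 3.58.1, other scalings and filters, a replicate block and leaving out each library were alternatives. In data simulated on these libraries, with changes placed on genes picked at random, the main test found 96.9% of 1.5 and 56% of 0.5 log2 changes. No share was worked out for genes as shallow as Nxt2 or for a change of its size. The replicates are biological per the methods, and differed by more than sampling noise (chi-square per degree of freedom 1.91 and 1.51).

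The members and the lists were chosen with earlier results of these data known. Named genes were the members, Zfp574, called genes of the export list, the 2 nearest table genes on each side of Nxt2 and the 5 genes most like it (log2 CPM with a pseudocount of 2). GENCODE matched 12474 genes, and RefSeq promoters 9 of 10 members. Window uniqueness was an exact search of 21 chromosomes with Python 3.11.15. Exact intervals used scipy 1.17.1.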

Additional observations from a re-analysis of the deposited data

How the results depend on the processing

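The log2 fold change of Nxt2 kept its direction in every alternative that gave it, from 0.930 to 1.146, with 0.940 as the lowest when 1 library was left out. In these fits the lone library of a condition is assumed to vary like the pair of the other. The count of lower genes in the export list was 12 with the recovered size factors, where 698 of all 11853 genes were lower. The 2-fold count was 1 with a mean count of at least 100, where Fyttd1 was not tested. The likelihood ratio test and the replicate block each called 1 higher gene, Nxt2, at both thresholds (157 and 366 higher genes in all without the fold limit), the cause not being tested. The labels do not say whether the replicate numbers pair the libraries. The differences between replicates correlated at 0.034 between conditions, but counting noise lowers such a correlation, so it does not decide pairing. With the block, 300 of all genes were called lower and 366 higher, against 166 and 132 without it. The block changed no call of Ncbp3, Fyttd1 or Sem1. The median of the members was -0.082 with library totals and -0.151 with the recovered factors, and that of the list -0.092 and -0.161, as these scalings lower all genes (to -0.036 and -0.105). With 1 library left out, the median of the members ranged from -0.073 to 0.002 and that of the list from -0.081 to -0.052. Tex13b, not past the threshold, ranged from -0.296 to 0.563, the sign reversing without control replicate 2 (-0.039) and without depletion replicate 1 (-0.296). Per-kb control levels were 2.48 for Thoc2 over its longest transcript, and 0.704 for Thoc1, 1.64 for Thoc5 and 2.20 for Thoc6 with library totals. The calls of Acsl4 and Tmem164 were lost as given above. The alternatives for genes that are no members were chosen after seeing the data. The values of Nxt2 rest on 11 and 14 control counts.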
